A study of Mus musculus with 35 samples.

Results

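The ileal bile acid and FXR genes were examined as a set of 7 genes, Fgf15, Nr0b2, Nr1h4, Slc10a2, Fabp6, Slc51a and Slc51b, chosen by name: every probeset whose annotated symbol was one of these was taken. Each gene had 1 probeset, so the set held 7 of the 45037 probesets on the array that were not controls. RNA came from the small intestine, taken over its full length, of male mice about 4 months old, 1 mouse per array, 35 arrays in all. PPARα-null mice of the 129S4/SvJae substrain, a germline null, were compared with wild-type mice of the 129S1/SvImJ substrain, so that the deletion and the substrain cannot be told apart. All mice had eaten an AIN76A diet with olive oil for 2 weeks and had been fasted for 4 h. They then received 400 μl by oral gavage and were killed 6 h later. The gavage was WY14643, a synthetic PPARα agonist (0.1% in 0.5% carboxymethyl cellulose; 4 PPARα-null and 4 wild-type mice), or a synthetic triacylglycerol: that of docosahexaenoic acid (DHA; 4 PPARα-null and 5 wild-type mice), of eicosapentaenoic acid (EPA; 5 of each genotype) or of oleic acid (OA; 4 of each genotype). Mice given the carboxymethyl cellulose alone were not analysed here, so WY14643 cannot be told apart from its fat-free vehicle when it is set against the triacylglycerols.

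Bile acids are made in the liver, secreted with a meal and recovered in the distal small intestine. The enterocyte takes them up through the sodium-dependent carrier Slc10a2 (ASBT), binds them to Fabp6 (the ileal bile acid-binding protein) and exports them through the Slc51a/Slc51b heterodimer (OSTα/OSTβ). Bile acids also bind the nuclear receptor FXR, encoded by Nr1h4, whose known targets in the ileum include Fabp6, Slc51a, Slc51b, the repressor SHP (Nr0b2) and Fgf15, a hormone that signals to the liver to lower bile acid synthesis. PPARα is a nuclear receptor for fatty acids, and the study asked which genes of intestinal transport and metabolism it controls after dietary fatty acids. The comparisons below put this question to the bile acid genes.

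All values are log2 expression levels, and a gene was counted as expressed where at least 1 of the 8 group means was above 5 on this scale, a linear level of 32. Of the 45037 probesets, 15384 passed, and 6 of the 7 bile acid probesets were among them. Differences were tested with limma in 1 model over all 35 arrays, and p-values were adjusted over the 15384 probesets. The threshold for a call was an adjusted p of 0.05. The tissue was RNA of whole intestine, in which fewer cells of a type and less RNA per cell cannot be told apart. The enterocyte genes Fabp2, Vil1 and Alpi were high in every group (summed level from 14.92 to 15.12 over all arrays).

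In 3 of the 35 libraries a gene that follows the genotype went against the label. Cyp4a10, a fatty acid ω-hydroxylase that responds strongly to PPARα, read from 1.36 to 2.50 in 15 arrays labelled PPARα-null and from 8.15 to 12.75 in 17 arrays labelled wild-type. It read 9.91 in the library labelled PPARα-null EPA replicate 5, 10.61 in the one labelled PPARα-null OA replicate 1 and 1.81 in the one labelled wild-type EPA replicate 5. Ppara itself was read on its probeset with the largest averaged genotype difference in these same data. It read 7.83 and 7.27 in the 2 labelled PPARα-null and 4.82 in the one labelled wild-type, although its ranges in the other arrays overlapped (4.32 to 6.56 in PPARα-null and 5.60 to 9.58 in wild-type mice). All 35 arrays were kept under their labels. Each call that involves EPA or OA, or an average over them, is given below also without these 3 libraries where that changed the call.

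The sequence upstream is shown for Nr1h4 and Nr0b2, the 2 genes with a called genotype difference within an agonist, and for Fabp6, the carrier whose stretch held motif matches. RefSeq promoter sequences (GRCm38.p6) were matched for 6 of the 7 genes; Fgf15 was not matched. In the 250 bases before the start, 2 motifs were searched on both strands with up to 2 mismatches in the 12 defined letters: IR-1 (AGGTCANTGACCT, the inverted repeat that FXR with RXR is known to bind) and DR-1 (AGGTCANAGGTCA, the direct repeat known for PPARα and HNF4α). Matches are in capitals, written as they stand on the strand of the gene.
Nr1h4, chr10:89506659-89506908, minus strand: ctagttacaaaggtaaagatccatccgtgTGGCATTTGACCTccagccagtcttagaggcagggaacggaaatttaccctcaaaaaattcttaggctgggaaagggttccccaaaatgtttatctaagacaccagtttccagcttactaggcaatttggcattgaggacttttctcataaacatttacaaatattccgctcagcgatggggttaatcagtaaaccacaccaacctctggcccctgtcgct
Nr0b2, chr4:133553126-133553375, plus strand: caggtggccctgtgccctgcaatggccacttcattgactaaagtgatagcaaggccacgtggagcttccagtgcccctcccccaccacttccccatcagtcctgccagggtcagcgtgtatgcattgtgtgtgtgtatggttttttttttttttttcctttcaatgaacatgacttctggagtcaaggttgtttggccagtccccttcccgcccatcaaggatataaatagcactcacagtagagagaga
Fabp6, chr11:43601563-43601812, minus strand: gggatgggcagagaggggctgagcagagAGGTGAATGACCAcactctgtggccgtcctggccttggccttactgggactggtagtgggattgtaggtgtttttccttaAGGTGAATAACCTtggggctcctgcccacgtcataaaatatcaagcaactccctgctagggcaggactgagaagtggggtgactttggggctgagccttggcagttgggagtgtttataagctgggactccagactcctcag
The Nr1h4 stretch belongs to a start inside the span of the gene (chr10:89454234-89533645). It held 1 DR-1 match on the opposite strand (221 to 209 bases before the start) with 2 mismatches, and Fabp6 held 2 IR-1 matches with 2 mismatches each (222 to 210 and 142 to 130 bases before). Nr0b2, Slc10a2, Slc51a and Slc51b held neither. Of 32817 promoters of the same length, 0.957% held an IR-1 match and 3.23% a DR-1 match. A match describes these letters only and was not tested as a binding site.

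Fabp6 averaged 13.55 over all arrays, which put it at the 99.7th percentile of the expressed probesets, and Slc51a and Slc51b averaged 10.46 and 9.61. Nr1h4 averaged 9.03, Slc10a2 8.80 and Nr0b2 7.15, each above 5 in 35 of 35 arrays. These are levels of different probesets and do not rank the transcripts. Among the 7 steps between neighbouring groups, when a gene's 8 group means were put in order, at most 2 steps were larger than the larger SD of the neighbours.

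**Figure D1:**
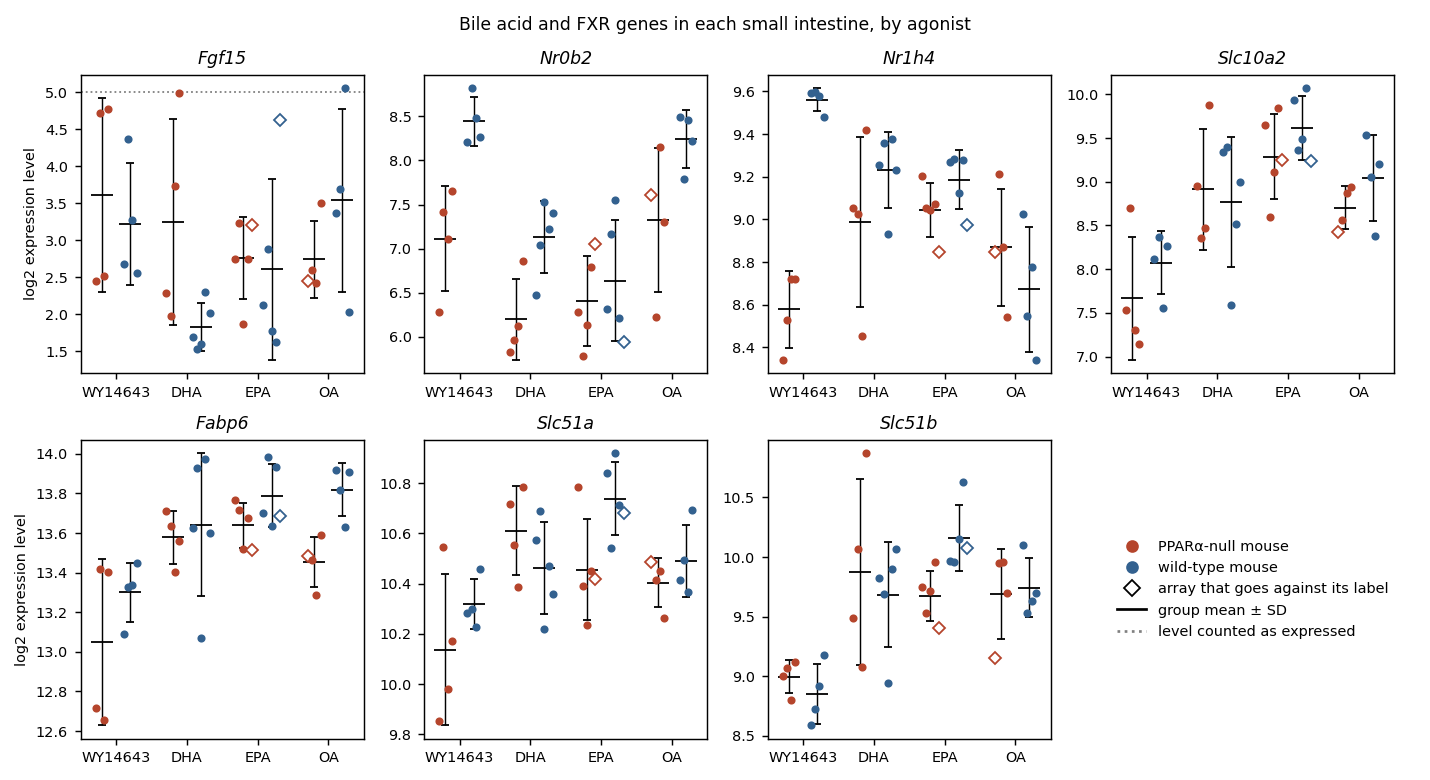
Log2 expression level (y axis, its own scale in each panel) of the 7 bile acid genes in each of 35 small intestines, by agonist, with PPARα-null mice (red) left of wild-type mice (blue) and the group mean ± SD (n = 4 or 5). Open diamonds are the 3 libraries whose Cyp4a10 goes against their label; Nr1h4 after WY14643 read 8.34 to 8.72 in PPARα-null and 9.48 to 9.60 in wild-type mice, and Fgf15 crossed the dotted line at 5 in 1 array.

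Fgf15, the hormone of the set (chr7:144896532-144900953 in GRCm38.p6, as are the other gene positions), was not expressed by the rule: its highest group mean was 3.62, in PPARα-null mice after WY14643, and its lowest was 1.83, in wild-type mice after DHA. Single arrays reached from 1.53 to 5.06, and only 1 of 35, wild-type OA replicate 3, was above 5. After DHA the PPARα-null mice read 2.29, 1.98, 3.74 and 4.99, and the wild-type mice read 1.69, 1.53, 1.60, 2.30 and 2.02. Since both groups were below the level of 32, no fold is given and the gene was not tested for differences between groups. None of the 7 steps in its order of group means exceeded the spread. The receptor to which FGF15 binds, Fgfr4 with its co-receptor Klb, was not expressed in any group either (0 of 2 genes).

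Nr1h4, which encodes FXR, differed most clearly between the genotypes after WY14643. The PPARα-null mice read 8.34, 8.53, 8.72 and 8.72, against 9.59, 9.60, 9.58 and 9.48 in wild-type mice, and the groups did not overlap. The 4 wild-type arrays lay within an SD of 0.05 and were the highest group of the 8, while the PPARα-null group was the lowest. The mean was 8.58 ± 0.18 in PPARα-null and 9.56 ± 0.05 in wild-type mice (SD, n = 4 each), 1.98-fold lower in PPARα-null mice (limma, difference -0.98, SE 0.15, adjusted p = 3.54e-05).

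After the triacylglycerols the same gene showed no called genotype difference. After DHA the PPARα-null mice read 9.05, 9.03, 8.45 and 9.42, against 9.25, 9.36, 8.93, 9.38 and 9.23 in wild-type mice (difference -0.24, 95% interval -0.54 to 0.05). After EPA the PPARα-null mice read 9.20, 9.05, 9.05, 9.07 and 8.85, against 9.27, 9.29, 9.12, 9.28 and 8.97 in wild-type mice (difference -0.14, interval -0.42 to 0.14). After OA the PPARα-null mice read 8.85, 9.22, 8.87 and 8.54, against 9.02, 8.55, 8.78 and 8.34 in wild-type mice, and here the PPARα-null mean was the higher one (difference 0.20, interval -0.11 to 0.51). The groups overlapped after each triacylglycerol. In the order of the 8 means, 2 steps exceeded the spread: wild-type mice after WY14643 (9.56) stood above wild-type mice after DHA (9.23), and wild-type mice after EPA (9.19) above PPARα-null mice after EPA (9.04).

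The change of the genotype difference with the agonist was tested directly for Nr1h4. The difference after WY14643 was lower than that after OA by 1.18 (SE 0.22, limma adjusted p = 0.00265) and lower than the mean of the 3 triacylglycerols by 0.92 (SE 0.17, adjusted p = 0.00205). Against EPA it was lower by 0.84 (adjusted p = 0.0283), a call that was lost without the 3 doubted libraries (adjusted p = 0.0599) and without any 1 of 7 single arrays (adjusted p from 0.0567 to 0.0933): PPARα-null WY14643 replicates 1 and 2, wild-type WY14643 replicates 1, 2 and 3, PPARα-null EPA replicate 1 and wild-type EPA replicate 5. Against DHA it did not pass (difference -0.74, interval -1.17 to -0.31, adjusted p = 0.146). Nr1h4 was the 1 gene of the 6 called in the contrasts with OA, with EPA and with the mean, where 1.07%, 1.18% and 1.53% of the 15384 probesets were called, and 0 of 6 were called against DHA, where the share was 0.436%. Between DHA and EPA, DHA and OA, and EPA and OA, 0 probesets of 15384 were called (0% in each), with 858, 877 and 842 at an unadjusted p under 0.05, and 1, 1 and 0 of the 6 bile acid genes among them.

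Nr0b2, which encodes the repressor SHP (chr4:133553376-133556686), was also lower in PPARα-null than in wild-type mice after WY14643. It read 6.28, 7.41, 7.11 and 7.66 in PPARα-null mice, against 8.20, 8.82, 8.48 and 8.27 in wild-type mice, with no overlap. The difference was -1.33, 2.51-fold lower in PPARα-null mice (SE 0.36, limma adjusted p = 0.0201). It was lost when PPARα-null replicate 1 (adjusted p = 0.109), PPARα-null replicate 3 (0.0512) or wild-type replicate 2 (0.0866) was left out.

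After the triacylglycerols no genotype difference of Nr0b2 was called. After DHA it read 5.83, 5.97, 6.13 and 6.86 in PPARα-null mice, against 6.48, 7.04, 7.53, 7.22 and 7.40 in wild-type mice (difference -0.93, adjusted p = 0.0994). After EPA it read 6.28, 5.79, 6.14, 6.79 and 7.05 in PPARα-null mice, against 6.32, 7.17, 7.55, 6.21 and 5.95 in wild-type mice (difference -0.23, adjusted p = 0.853), and without the 3 doubted libraries the difference was -0.56 (adjusted p = 0.462). After OA it read 7.61, 6.22, 8.15 and 7.30 in PPARα-null mice, against 8.50, 7.79, 8.46 and 8.22 in wild-type mice (difference -0.92, adjusted p = 0.305). The groups overlapped in all 3, and the PPARα-null mean was the lower one in each. No change of this difference with the agonist passed (lowest adjusted p = 0.566, for WY14643 against EPA). In the order of the 8 means, 1 step exceeded the spread, that between wild-type mice after OA (8.24) and PPARα-null mice after OA (7.32). The highest mean was that of wild-type mice after WY14643 (8.44) and the lowest that of PPARα-null mice after DHA (6.20).

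The carriers parted the genotypes less: Slc10a2 (chr8:5083219-5105287), Fabp6 (chr11:43596040-43601562), Slc51a (chr16:32475578-32487879) and Slc51b (chr9:65412753-65422773) were called within no agonist. After WY14643 Slc10a2 read 7.53, 8.70, 7.30 and 7.14 in PPARα-null mice, against 8.11, 8.37, 7.55 and 8.26 in wild-type mice (difference -0.41, interval -1.14 to 0.33). Fabp6 read 12.72, 13.42, 12.66 and 13.40 in PPARα-null mice, against 13.09, 13.33, 13.34 and 13.45 in wild-type mice (difference -0.25, interval -0.56 to 0.06). Slc51a read 9.85, 10.55, 9.98 and 10.17 in PPARα-null mice, against 10.28, 10.30, 10.23 and 10.46 in wild-type mice (difference -0.18, interval -0.43 to 0.07). In each of these 3 genes the groups overlapped and PPARα-null replicate 2 was the highest array of its group. Slc51b read 9.00, 9.07, 8.80 and 9.12 in PPARα-null mice, against 8.59, 8.72, 8.92 and 9.17 in wild-type mice (difference 0.15, interval -0.38 to 0.67).

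Counted together, 2 of the 6 bile acid genes tested were lower in PPARα-null mice after WY14643, where 6.22% of all probesets were called, and their median difference was -0.33 against 0.04 over all 15384. After DHA the count was 0 of 6 at a background of 6.19%. At an unadjusted p under 0.05 were 3278 of the 15384 probesets and 1 of the 6 genes, Nr0b2. After EPA the count was 0 of 6 at a background of 0%, with 1349 probesets of the array and 2 of the 6 genes, Slc51a and Slc51b, at an unadjusted p under 0.05. Slc51b read 9.75, 9.53, 9.71, 9.96 and 9.41 in PPARα-null mice, against 9.97, 9.96, 10.15, 10.63 and 10.07 in wild-type mice. Both EPA groups hold 1 of the 3 doubted libraries. Without those 3 libraries 0 of 6 genes were called after EPA (lowest adjusted p = 0.285, for Slc51a), at a background of 1.64%. After OA the count was 0 of 6 at a background of 0.351%. At an unadjusted p under 0.05 were 1766 of the 15384 probesets and 2 of the 6 genes, Nr0b2 and Fabp6. Fabp6 read 13.48, 13.46, 13.28 and 13.59 in PPARα-null mice, the first of these in a doubted library. In wild-type mice it read 13.92, 13.81, 13.63 and 13.91.

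Averaged over the 4 agonists, 3 of the 6 genes were lower in PPARα-null mice, at a background of 20.7%. Nr0b2 averaged 6.76 in PPARα-null and 7.61 in wild-type mice (difference -0.85, SE 0.17, adjusted p = 0.000663). Nr1h4 averaged 8.87 in PPARα-null and 9.16 in wild-type mice (difference -0.29, SE 0.07, adjusted p = 0.00478), and this average joins the agonists between which its difference changed. Fabp6, the cytosolic carrier, averaged 13.43 in PPARα-null and 13.64 in wild-type mice (difference -0.21, SE 0.07, adjusted p = 0.0443). Without the 3 doubted libraries the difference was -0.96 for Nr0b2 (adjusted p = 0.000188) and -0.29 for Nr1h4 (adjusted p = 0.00721). The Fabp6 call was lost without the 3 doubted libraries (adjusted p = 0.0603) and without 21 of the 35 single arrays (adjusted p from 0.0524 to 0.0876). The intervals of Slc10a2 (-0.59 to 0.12), Slc51a (-0.22 to 0.02) and Slc51b (-0.30 to 0.20) included 0.

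**Figure D2:**
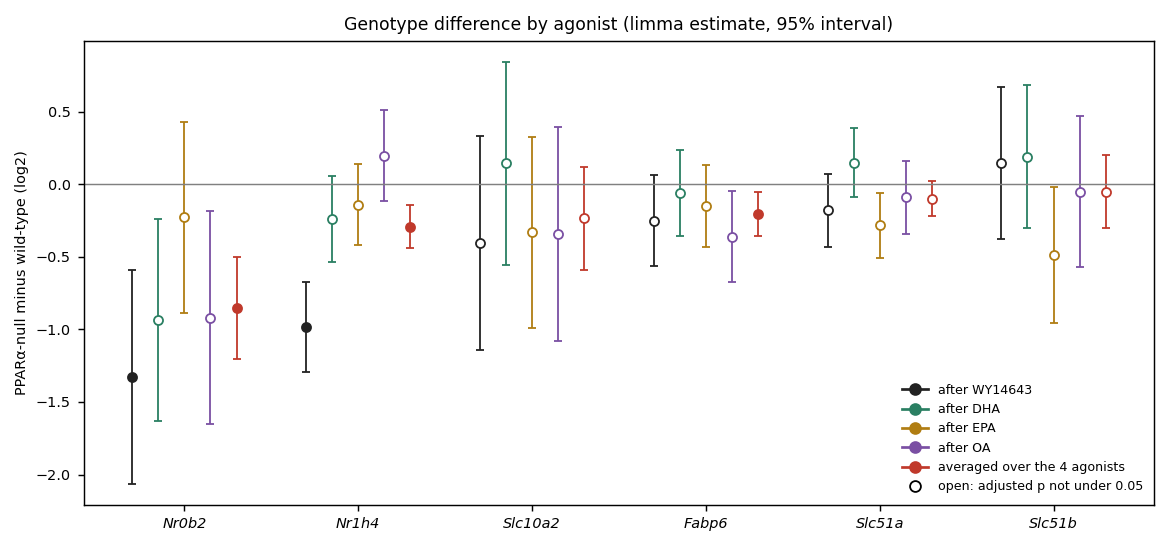
Difference of PPARα-null minus wild-type mice (y axis, log2) in 6 bile acid genes, after each agonist and averaged over the 4, with its 95% interval from limma; filled points have an adjusted p under 0.05. Nr0b2 (-1.33) and Nr1h4 (-0.98) after WY14643 are the 2 filled points within a single agonist.

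The segment markers that stand beside these genotype differences were as follows. The distal list (Cubn, Amn, Nts, Pyy, Reg3b and Reg3g) had 0 of 6 genes called after WY14643, where 6.22% of all probesets were called. Its summed level was 13.99 to 14.35 in PPARα-null and 14.19 to 15.09 in wild-type mice. At the same background the proximal list (Pdx1, Onecut2, Gip, Cck, Cybrd1, Slc40a1, Lct and Ada) had 3 of 8 higher in PPARα-null mice, Pdx1, Gip and Cybrd1. Its summed level of 14.15 to 14.28 in PPARα-null mice did not overlap that of 13.76 to 14.00 in wild-type mice. Pdx1 was close to the level of 5, with means of 5.32 in PPARα-null and 4.60 in wild-type mice. Gip passed narrowly (limma adjusted p = 0.0496) and its groups overlapped. Cybrd1, a duodenal iron reductase, was higher by 1.83 on 1 of its 2 probesets (SE 0.52, limma adjusted p = 0.0265). On the other, with means of 5.08 in PPARα-null and 4.03 in wild-type mice, the difference of 1.05 was not called (adjusted p = 0.0589). Fabp2, the enterocyte fatty acid-binding protein, was lower by 0.24 in PPARα-null mice (adjusted p = 0.000196). Averaged over the 4 agonists (background 20.7%), the ileal peptide hormone Nts (0.20, adjusted p = 0.037) of the distal list was higher in PPARα-null mice, as were Gip (0.16, adjusted p = 0.0353), Cybrd1 (1.25 and 0.57 on 2 probesets, adjusted p = 0.00053 and 0.0122) and the lactase Lct (0.31, adjusted p = 0.000374) of the proximal list. Ada, adenosine deaminase (-0.43, adjusted p = 0.0205), and Fabp2 (-0.13, adjusted p = 1.51e-05) were lower. After DHA (background 6.19%), Nts (0.49, adjusted p = 0.0259) and Lct (0.44, adjusted p = 0.0222) were higher and Ada (-0.88, adjusted p = 0.0415) and Fabp2 (-0.14, adjusted p = 0.0389) were lower in PPARα-null mice. After EPA and OA 0 genes of the distal, proximal and enterocyte lists were called. Of all probesets only 0% and 0.351% were called there, so these counts do not show that the markers were equal. The part of segment content in the genotype results was not tested.

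After WY14643 each of the 4 carrier genes was lower than after the triacylglycerols, in PPARα-null and in wild-type mice, in contrasts in which 33.2% and 40.8% of all probesets were called. In PPARα-null mice Slc10a2 read 7.14 to 8.70 after WY14643, against 8.35 to 9.88 (median 8.94, n = 13) after the triacylglycerols. In wild-type mice its WY14643 values lay from 7.55 to 8.37, against 7.59 to 10.07 (median 9.29, n = 14) after the triacylglycerols. All 8 WY14643 arrays of Slc10a2 lay below the median of the 27 triacylglycerol arrays, 9.11, and 4 lay below every one of them.

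WY14643 minus the triacylglycerols was -0.75 for Slc51b in PPARα-null and -1.01 in wild-type mice, and for its partner Slc51a it was -0.35 in PPARα-null and -0.25 in wild-type mice. In PPARα-null mice Slc51b read 8.80 to 9.12 after WY14643, against 9.08 to 10.87 (median 9.71) after the triacylglycerols, and in wild-type mice it read 8.59 to 9.17 after WY14643, against 8.94 to 10.63 (median 9.93) after the triacylglycerols. Again 8 of 8 WY14643 arrays lay below the triacylglycerol median, and 4 lay below all 27. In PPARα-null mice Slc51a read 9.85 to 10.55 after WY14643, against 10.24 to 10.79 after the triacylglycerols, and in wild-type mice it read 10.23 to 10.46 after WY14643, against 10.22 to 10.92 after the triacylglycerols. In PPARα-null mice Fabp6 read 12.66 to 13.42 after WY14643, against 13.28 to 13.77 after the triacylglycerols, and in wild-type mice it read 13.09 to 13.45 after WY14643, against 13.07 to 13.99 after the triacylglycerols. In PPARα-null mice 1 of the 4 WY14643 arrays of Slc51a, replicate 2, lay above the triacylglycerol median.

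In the order of the 8 group means, the 2 WY14643 groups were the lowest 2 for each of the 4 carriers. For Slc10a2 the order ran from wild-type EPA (9.62 ± 0.37) through PPARα-null EPA (9.29 ± 0.49), wild-type OA (9.04 ± 0.49), PPARα-null DHA (8.91 ± 0.69), wild-type DHA (8.77 ± 0.75) and PPARα-null OA (8.70 ± 0.25) to wild-type WY14643 (8.07 ± 0.36) and PPARα-null WY14643 (7.67 ± 0.70; SD, n = 4 or 5). The 1 step beyond the spread was the one between the lowest triacylglycerol group and the WY14643 groups. That was also the 1 such step for Fabp6 (13.46 ± 0.13 in PPARα-null OA above 13.30 ± 0.15 in wild-type WY14643) and for Slc51b (9.67 ± 0.21 in PPARα-null EPA above 9.00 ± 0.14 in PPARα-null WY14643), while Slc51a had none. Its means ran from 10.74 ± 0.15 in wild-type EPA to 10.14 ± 0.30 in PPARα-null WY14643.

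Averaged over the genotypes, WY14643 minus the mean of the 3 triacylglycerols was -1.19 for Slc10a2 (SE 0.21, 2.28-fold lower after WY14643, limma adjusted p = 1.78e-05), -0.88 for Slc51b (SE 0.15, 1.84-fold lower, adjusted p = 9.55e-06), -0.48 for Fabp6 (SE 0.09, adjusted p = 3.57e-05) and -0.30 for Slc51a (SE 0.07, adjusted p = 0.000662). Nr0b2 was higher by 0.79 (SE 0.21, adjusted p = 0.00182). With Nr1h4 not called (0.07, interval -0.11 to 0.25), 5 of the 6 genes were called, at a background of 53.8%, so a call here is common on the array. The median difference of the 6 genes was -0.39, against 0.01 over all probesets.

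Within PPARα-null mice, 5 of 6 genes were lower after WY14643 (background 33.2%): the 4 carriers, from -0.35 for Slc51a to -1.30 for Slc10a2, and Nr1h4 (-0.39, SE 0.12, adjusted p = 0.016). The calls of Nr1h4 and Slc51a were lost without PPARα-null WY14643 replicate 1 (adjusted p = 0.0891 and 0.07). Within wild-type mice, 6 of 6 were called (background 40.8%): the 4 carriers lower, from -0.25 for Slc51a to -1.07 for Slc10a2, and both regulators higher, Nr0b2 by 1.10 (SE 0.29, adjusted p = 0.00281) and Nr1h4 by 0.53 (SE 0.12, adjusted p = 0.000887). The 4 Nr1h4 values after WY14643 in wild-type mice lay above all 14 values after the triacylglycerols (8.34 to 9.38). The Slc51a call in wild-type mice (adjusted p = 0.0461) was lost without the 3 doubted libraries (0.0535) and without 11 of 18 single arrays (0.052 to 0.139). For the 4 carriers no genotype dependence of this difference passed (adjusted p from 0.914 to 0.969), and the interval was widest for Slc10a2, -1.07 to 0.61.

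**Figure D3:**
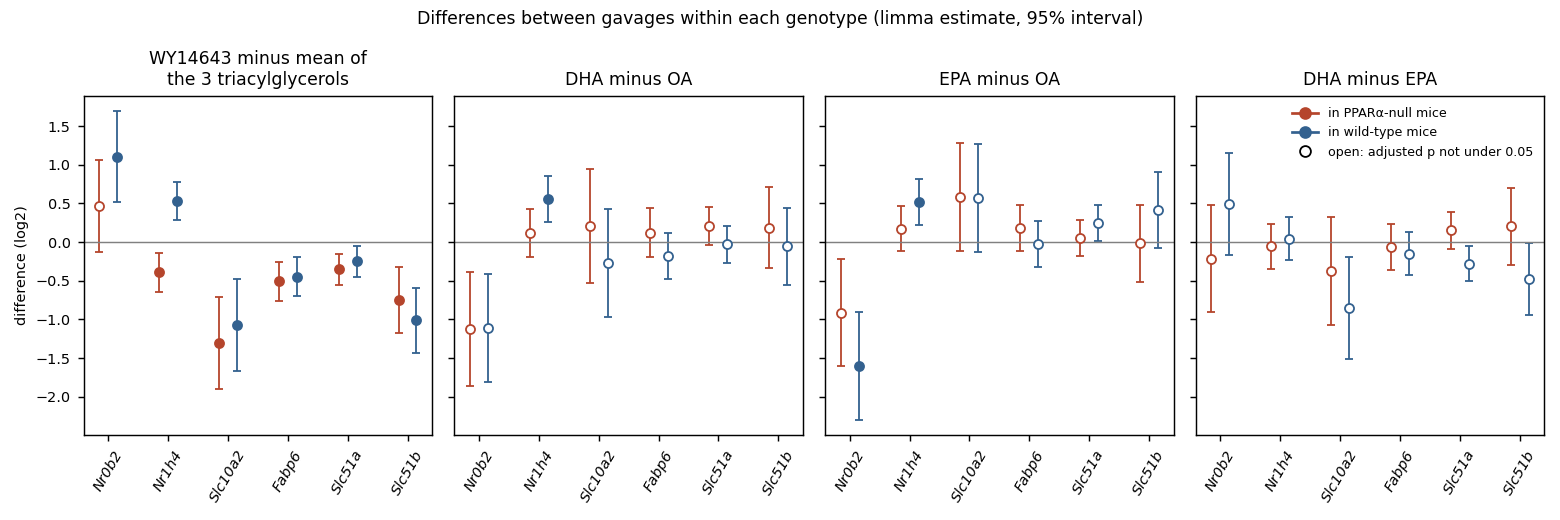
Difference between gavages (y axis, log2, 95% interval from limma) in 6 bile acid genes, in PPARα-null mice (red, left) and wild-type mice (blue, right); filled points have an adjusted p under 0.05. All 4 carriers lie below 0 after WY14643 in both genotypes, while Nr1h4 lies at -0.39 in PPARα-null and at 0.53 in wild-type mice.

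Markers of the intestinal segments moved with the same contrast. In the distal list, averaged over the genotypes, Cubn (1.33 and 1.21 on its 2 probesets) and Amn (0.51), which form the ileal receptor for vitamin B12 bound to intrinsic factor, were higher after WY14643, while the antimicrobial lectins Reg3b (-0.72 and -0.43) and Reg3g (-1.26) were lower, and Nts and Pyy were not called. The summed level is weighted to the highest genes of the list, Reg3b and Reg3g, while Cubn and Amn went the other way. The distal summed level had medians of 14.10 in PPARα-null and 14.22 in wild-type mice after WY14643, against 14.90 to 15.14 in the PPARα-null and 14.41 to 14.97 in the wild-type triacylglycerol groups. In the proximal list 3 of 8 were higher (Onecut2, Gip, Lct) and Pdx1 was lower, at the background of 53.8% given above. Of the pancreatic acinar genes, whose summed level ran from 4.46 to 15.19 over single arrays, 1 of 3, Cel, was called lower (-1.79, adjusted p = 0.0368). Cpa1 (-1.67, adjusted p = 0.0584) and Ctrb1 (-1.62, adjusted p = 0.0583) had similar differences and were not called. Within PPARα-null mice (background 33.2%) all 3 were called lower after WY14643: Cel (-3.00), Cpa1 (-2.88) and Ctrb1 (-2.85), with adjusted p from 0.0237 to 0.0354. The part of these markers in the carrier results was not tested.

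**Figure D4:**
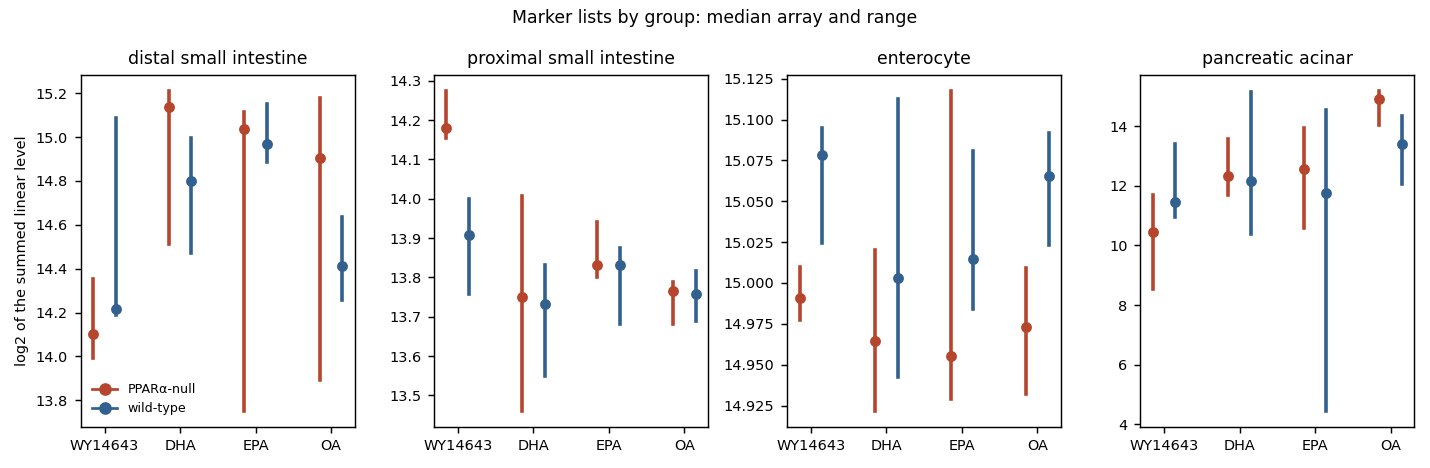
Summed linear level of 4 marker lists (y axis, log2 of the sum, its own scale in each panel), by agonist, in PPARα-null mice (red, left) and wild-type mice (blue, right); the dot is the median array and the line the range. The distal sum is weighted to its highest genes, Reg3b and Reg3g. The distal list has its lowest PPARα-null median after WY14643 (14.10), and the proximal list its highest (14.18).

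Among the triacylglycerols, given in the same volume for the same time, 3 pairs were compared. DHA and EPA are long omega-3 acids with several double bonds, and OA has a single one. Nr0b2 was lower after both omega-3 triacylglycerols than after OA: averaged over the genotypes by 1.12 after DHA (SE 0.25, 2.17-fold, limma adjusted p = 0.00442) and by 1.26 after EPA (SE 0.24, 2.39-fold, adjusted p = 0.000582). In wild-type mice the DHA and EPA values listed above lay below each of the 4 OA values, which were 7.79 or higher. That difference was called for EPA (-1.60, adjusted p = 0.00291) and not for DHA (-1.11, interval -1.81 to -0.41, adjusted p = 0.0689). In PPARα-null mice, where the OA array labelled replicate 2 read 6.22, neither was called (DHA -1.12, adjusted p = 0.146, and EPA -0.91, adjusted p = 0.181). Without the 3 doubted libraries the averaged difference was -1.07 for DHA (adjusted p = 0.00752) and -1.20 for EPA (adjusted p = 0.00222).

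Nr1h4 moved the other way in wild-type mice. It was higher than after OA by 0.56 after DHA (SE 0.14, adjusted p = 0.0222) and by 0.51 after EPA (SE 0.14, adjusted p = 0.0282), and in PPARα-null mice it was not called (0.12, interval -0.19 to 0.43, after DHA, and 0.18, interval -0.12 to 0.47, after EPA). That the step is larger in wild-type mice was not shown: the difference between the genotypes had an adjusted p of 0.86 for DHA and of 0.964 for EPA. The wild-type DHA call was lost without wild-type DHA replicate 2 (adjusted p = 0.0521) or 4 (0.0643), or wild-type OA replicate 2 (0.0806) or 4 (0.143). The wild-type EPA call was lost without wild-type EPA replicate 1 (0.0569), 2 (0.0564) or 4 (0.0602), or wild-type OA replicate 2 (0.0863) or 4 (0.143).

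Counted together against OA, 2 of the 6 genes were called for EPA averaged over the genotypes, at a background of 11.1%. Nr0b2 was lower, and Nr1h4 was higher by 0.34 (limma adjusted p = 0.0253). The same 2 were called in wild-type mice (6.06%), and 0 of 6 in PPARα-null mice (2.2%). In PPARα-null mice 2191 of the 15384 probesets and 1 of the 6 genes, Nr0b2, had an unadjusted p under 0.05. The averaged Nr1h4 call was lost without PPARα-null OA replicate 4 (adjusted p = 0.0801), wild-type OA replicate 2 (0.0538) or wild-type OA replicate 4 (0.0726), and kept without the 3 doubted libraries (0.39, adjusted p = 0.0246). For DHA, 1 of 6, Nr0b2, was called averaged over the genotypes (5.89%), 0 of 6 in PPARα-null mice (0.923%) and 1 of 6, Nr1h4, in wild-type mice (3.4%). In PPARα-null mice 1920 of the 15384 probesets and 1 of the 6 genes, Nr0b2, had an unadjusted p under 0.05. None of the carriers was called against OA; the nearest was Slc10a2 after EPA, higher by 0.58 on average (interval 0.09 to 1.08, adjusted p = 0.128).

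Between DHA and EPA, 0 of 6 bile acid genes were called: averaged over the genotypes (background 2.93%), in PPARα-null mice (0.494%) and in wild-type mice (0.514%). At an unadjusted p under 0.05 were 1, 0 and 3 of the 6 genes, and 2255, 1411 and 1933 of the 15384 probesets. The interval of the averaged difference was narrow for Nr1h4 (-0.21 to 0.20), Slc51a (-0.22 to 0.10) and Fabp6 (-0.31 to 0.10), and wide for Nr0b2 (-0.34 to 0.62), Slc51b (-0.47 to 0.21) and Slc10a2 (-1.09 to -0.13, adjusted p = 0.184). In wild-type mice Slc10a2 read 9.34, 9.40, 7.59, 8.52 and 9.00 after DHA, against 9.94, 9.37, 9.48, 10.07 and 9.24 after EPA (difference -0.85, adjusted p = 0.239). DHA replicate 3 was the lowest of these 10 arrays and was also the lowest wild-type DHA array of Fabp6 (13.07), Slc51a (10.22), Slc51b (8.94) and Nr1h4 (8.93).

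Other genes of bile acid handling gave the following counts. Of 12 receptors and partner factors, 10 had a probeset and 9 were expressed. Averaged over the genotypes, 6 of the 9 were higher after WY14643 than after the triacylglycerols and 2 were lower, where 53.8% of all probesets were called. The vitamin D receptor Vdr (0.98 and 0.96 on its 2 probesets, adjusted p = 1.76e-09 and 3.68e-08) and the xenobiotic receptor Nr1i2, known as PXR (0.60 and 0.43), rose with the FXR partner Rxra (0.31), Rxrb (0.44), Nr5a2 (0.41 on 1 of its probesets), known as LRH-1, and Gata6 (0.19). Hnf4a (-0.23 to -0.21 on 3 probesets) and Gata4 (-0.21) were lower. Between the genotypes 0 of 9 were called after each agonist, at backgrounds of 6.22% (WY14643), 6.19% (DHA), 0% (EPA) and 0.351% (OA). Averaged over the agonists (background 20.7%) 1 of 9, Nr5a2, was called, higher in PPARα-null mice by 0.21 to 0.32 on 3 probesets (adjusted p from 0.0137 to 0.0337). After EPA, Nr5a2 (-0.57 and -0.42) and Gata6 (-0.29) were lower than after OA, and Gata6 and Nr1i2 were higher after DHA than after EPA (0.33 and 0.40).

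Of 7 other genes known to respond to FXR, 6 were expressed. After WY14643 (background 6.22% between the genotypes) Ang, the secreted ribonuclease angiogenin, was lower in PPARα-null mice (5.12 against 6.48 in wild-type mice, difference -1.36, SE 0.30, adjusted p = 0.00273), and Sdc1, a cell-surface proteoglycan, was higher (9.21 in PPARα-null against 8.84 in wild-type mice, difference 0.37, adjusted p = 0.0199). The Sdc1 call rests on 1 of its 4 probesets; the others had differences of 0.38, 0.42 and 0.00 (adjusted p = 0.0979, 0.0818 and 1). Against the triacylglycerols (background 53.8%) 2 of 6 were higher after WY14643 (Ang 0.53, Pltp 0.17) and 4 lower (Sdc1 -0.60 on its probeset of smallest p, Il18 -0.60, Car12 -0.37, Apoc2 -0.18). Ang was higher by 1.23 in wild-type mice (limma adjusted p = 0.000124) and was not called in PPARα-null mice. Its genotype difference after WY14643 was lower than the mean after the 3 triacylglycerols by 1.41 (adjusted p = 0.0195). Apart from wild-type WY14643, its group means lay from 5.01 to 5.79, close to the level of 5. Apoc2, an apolipoprotein that activates lipoprotein lipase, was lower after DHA (-0.50) and EPA (-0.47) than after OA (adjusted p = 7.11e-06 and 7.08e-06). Averaged over the agonists (background 20.7%), Car12, a carbonic anhydrase (-0.34, adjusted p = 0.00891), and Apoc2 (-0.24, adjusted p = 0.000375) were lower in PPARα-null mice. The group means of Car12 lay from 5.02 to 5.78, also close to the level of 5. Sdc1 was higher after EPA than after OA (0.39, adjusted p = 0.00018).

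Of 9 other bile acid carriers 3 were expressed, all of the Abcc family, and the hepatic carriers Slc10a1, Slco1b2 and Abcb11 were not. Only Abcc2, an apical export pump, was called in any of the averaged contrasts, higher by 0.45 after DHA than after OA (adjusted p = 0.0202). Of 10 genes of bile acid synthesis 3 were expressed, and Cyp7a1, the rate-limiting enzyme in liver, was not. Cyp27a1, the mitochondrial sterol hydroxylase, was higher by 1.30 after WY14643 than after the triacylglycerols (adjusted p = 3.04e-08) and by 0.52 in PPARα-null mice on average (adjusted p = 0.00281). Of the detoxifying cytochromes, Cyp3a11 (0.33) and Cyp3a25 (0.48) were higher after WY14643 than after the triacylglycerols, and Cyp3a13 was higher by 0.30 in PPARα-null mice after WY14643 (adjusted p = 0.00314).

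Covariation between mice of the same group was tested for all pairs of the 7 genes. Each array's value was taken as its deviation from the mean of its group, and 21 pairs of the 7 genes were tested over 35 arrays (permutation test with 100000 resamples, two-sided, adjusted over the 21 pairs). The deviations were permuted over all 35 arrays and not within groups, and the removed group means were not allowed for. The spread differed between groups: for Slc51b the SD was 0.14 in PPARα-null mice after WY14643 and 0.78 after DHA. The permutation p-values are therefore approximate, and passes close to 0.05 carry little weight. By Pearson's r, 5 pairs passed. Slc10a2 and Slc51a had r = 0.62 (permutation p = 5e-05, adjusted p = 0.00105) and Spearman's rho = 0.57 (p = 0.00044, adjusted p = 0.00924), and r was 0.50 without the 2 arrays farthest from the median of Slc10a2. Slc10a2 and Slc51b had r = 0.56 (permutation p = 0.00053, adjusted p = 0.00352), rho = 0.47 (p = 0.0045, adjusted p = 0.0472) and r = 0.51 without 2 arrays. Those were the 2 pairs that passed by rho as well. Of the 6 pairs among the 4 carriers, 4 passed by r.

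The other 3 pairs passed by r alone. Nr1h4 and Slc51b had r = 0.61 (permutation p = 0.00017, adjusted p = 0.00178), with rho = 0.40 (p = 0.0174, adjusted p = 0.0914) and r = 0.38 without the 2 farthest arrays. Fabp6 and Slc51a had r = 0.54 (permutation p = 0.00067, adjusted p = 0.00352), with rho = 0.45 (p = 0.00747, adjusted p = 0.0523) and r = 0.46 without 2 arrays. Slc10a2 and Fabp6 had r = 0.43 (permutation p = 0.01, adjusted p = 0.042), with rho = 0.31 (p = 0.0694, adjusted p = 0.243) and r = 0.17 without 2 arrays, so that this relation rested on those arrays. Slc51a and Slc51b, the subunits of 1 transporter, had r = 0.31 (permutation p = 0.0751, adjusted p = 0.175) and rho = 0.27 (p = 0.117, adjusted p = 0.273). Fabp6 and Slc51b had r = 0.38 (permutation p = 0.0249, adjusted p = 0.0871) and rho = 0.38 (p = 0.0249, adjusted p = 0.104). Fgf15 and Nr0b2 passed with no other gene of the set; between the 2 of them r was 0.23 (permutation p = 0.179, adjusted p = 0.341) and rho 0.28 (p = 0.104, adjusted p = 0.273). In 10 of 35 arrays all 4 carriers lay on the same side of their group means, 4 above and 6 below. Without the 3 doubted libraries 4 of the 21 pairs passed by r.

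**Figure D5:**
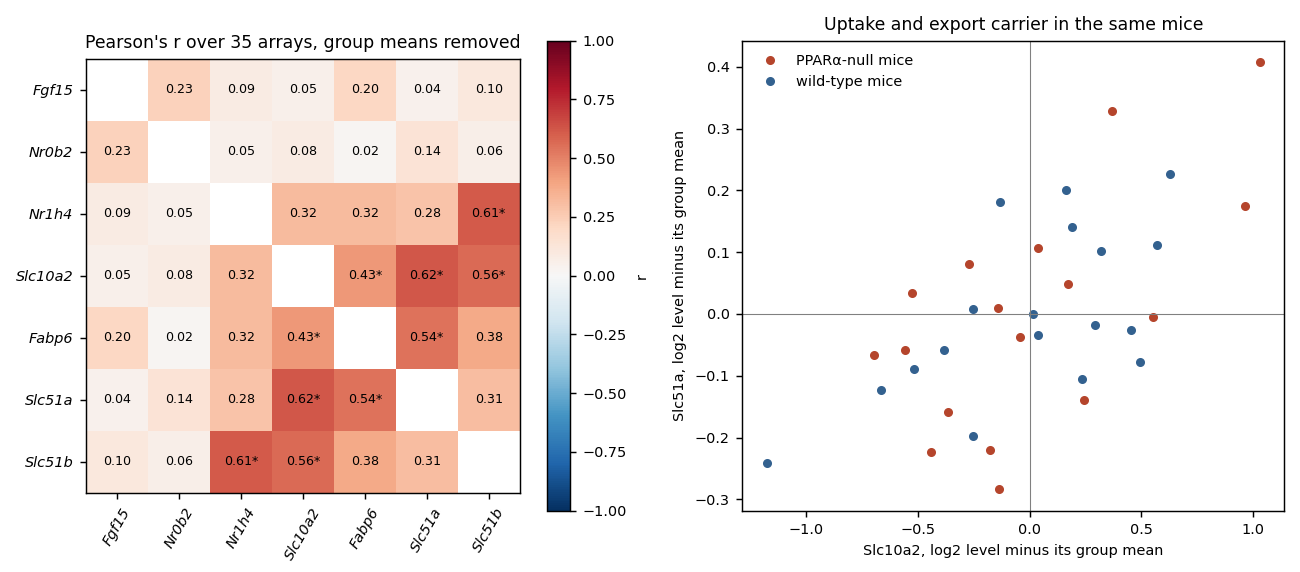
Left, Pearson's r between the 7 genes over 35 arrays after the group means were removed (asterisk, adjusted p under 0.05 over 21 pairs); right, Slc51a against Slc10a2, each as log2 level minus its group mean, in PPARα-null mice (red) and wild-type mice (blue). The marked pairs are those of Slc10a2 with Slc51a (0.62), Slc51b (0.56) and Fabp6 (0.43), of Nr1h4 with Slc51b (0.61) and of Fabp6 with Slc51a (0.54).

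Markers of the segments varied with some of these genes within the groups, given here as a description over the same 35 arrays with no test. Slc51b had r = -0.61 with Amn and -0.60 with the brush-border lactase Lct, and 0.48 with the ileal and colonic hormone Pyy, and its median r over the 6 distal genes was 0.30. Slc51a had r = -0.51 with Gip, Slc10a2 had -0.46 with Lct, Nr1h4 had -0.43 with Ada, and Nr0b2 had -0.51 with Slc40a1 and 0.49 with Onecut2. The median over the distal genes was 0.05 for Slc10a2, 0.17 for Fabp6, 0.23 for Slc51a and 0.26 for Nr1h4, and over the 8 proximal genes it lay from -0.13 to 0.11 for the 7 genes. Their part in the relations between the carriers was not tested.

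The genes most like each member were found by the same group-centred r over the 35 arrays, among expressed probesets with 1 gene symbol. For Slc10a2 they were Sgms1 (r = 0.82), D17H6S56E-5 (0.81), Gfpt1 (0.80), Ythdf1 (0.78) and Suox (0.78), and for Fabp6 they were Suox (0.75), Tmigd1, Ipo9, Rbm14 and Tspan1 (0.60 to 0.62). Slc51a was most like Ppp2cb (0.80), Drg1, Eif6, Kdelr2 and Gspt1 (0.75), and Slc51b most like Agr2 (0.77), Cldn2, Mboat1, Fst and Med31 (0.73). For the receptors, Nr1h4 was most like Plxna2 (0.74), Stat3, Zfp330, Vmp1 and Lrch1 (0.66), and Nr0b2 most like Wsb2 (0.75), Cdkn1a, Pigc, Ets2 and Nr1i2 (0.68). Fgf15, below the expressed level, reached 0.59 with Ndrg1, followed by Eif4ebp2, Ip6k2, Flt4 and Slc6a9 (0.56). Within the set, Slc51b ranked 21st of 13709 probesets by likeness to Nr1h4 and Slc51a ranked 8th by likeness to Fabp6, while by likeness to Slc10a2 the ranks were 404th for Slc51a, 686th for Slc51b and 1387th for Fabp6, so that many other probesets were more like it than the carriers were, and no member ranked above 1101st for Fgf15 or above 2686th for Nr0b2. All 35 points share the tissue sampling and the array design, and the highest of some 13709 values is high by selection.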

How the data were processed

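Affymetrix arrays of mouse small intestine were used as deposited: 1 value table of 45101 probesets and 35 arrays. The authors made its log2 values with GCRMA, as the submitters' processing notes name it: background correction by probe sequence, quantile normalization, and 1 summary value per probeset and array. Its version is not given in the sources used here. GCRMA sets dim probesets close to a common floor, so that differences below the expressed level carry little weight. The 64 control probesets were left out. Of the other 45037 probesets, the platform annotation gave 1 gene symbol to 34945, several to 932 and none to 9160.

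From these values, 1 mean per group was fitted with limma 3.58.1 (R 4.3.3; lmFit, and eBayes with an intensity trend) over all 35 arrays and the 15384 probesets with a group mean above log2 5. Contrasts were coded PPARα-null minus wild-type, WY14643 minus the mean of the 3 triacylglycerols, EPA or DHA minus OA, and DHA minus EPA, with the differences between genotype contrasts. The moderated tests were two-sided, with Benjamini-Hochberg adjustment over the 15384 probesets in each contrast. Intervals are 95% intervals for that contrast alone. Covariation was tested by permutation (Python 3.11.15, numpy 2.4.6, scipy 1.17.1), and figures were drawn with matplotlib 3.10.9. Each array is a separate mouse, so the spread is between animals, and the number of arrays limits the precision. The fits were checked on simulated data.

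The 7 genes, the gene lists and the left-out arrays were chosen with earlier results of these data known. Every gene of the set was named, with the 5 probesets most like each gene; the list genes named were taken from those called in a contrast described or highest in mean, and not every such gene is named. Alternatives were array weights, a replicate block, a fit restricted to the groups of the contrast, no trend, a robust prior, no filter, a filter at log2 6, a pseudocount of 32 on the linear scale, quantile or median scaling of the arrays, leaving out 3 arrays or each array in turn, an adjusted p under 0.01, and the study's unadjusted p under 0.01.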

Additional observations from a re-analysis of the deposited data

Results flagged for a closer look

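In 56 groups of 4 or 5 arrays (7 genes in 8 groups), 2 arrays stood far from the rest of their group by Dixon's gap, which chance gives in about 1 in 20 groups. Fgf15 read 3.51 in PPARα-null OA replicate 4, against 2.42 to 2.60 in the other 3 arrays, all below the expressed level of 5. Slc51b read 10.63 in wild-type EPA replicate 4, against 9.96 to 10.15 in the other 4 arrays.

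The genotype difference of Nr1h4, PPARα-null minus wild-type, changed with the agonist in 3 limma contrasts. After WY14643 it was more negative than after EPA (-0.84, adjusted p = 0.0283), than after OA (-1.18, adjusted p = 0.00265) and than the mean after the 3 triacylglycerols (-0.92, adjusted p = 0.00205).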

How the results depend on the processing

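Each of 30 single differences, all called in the main fit, was recomputed under 1019 settings in all: 940 kept direction and call, 79 kept direction but lost the call, and 0 changed sign. Many of these settings left out 1 array only, so a change of sign was unlikely from the start. The number of genes called after WY14643 (PPARα-null minus wild-type, 2) became 1 at an adjusted p under 0.01, and 1 to 2 when single arrays were left out. The number for EPA minus OA averaged over the genotypes (2) became 1 with no filter on the level and 1 at an adjusted p under 0.01, and lay between 1 and 2 over left-out arrays. The number for DHA minus OA averaged over the genotypes (1, with Nr1h4 at an adjusted p of 0.051) became 2 with a filter at log2 6, with a robust prior, with log2 of the linear value plus 32, with array weights, with the replicate block and at the study's unadjusted p under 0.01, and lay between 1 and 2 over left-out arrays. The counts for the averaged genotype contrast (3; 2 to 3), WY14643 minus the triacylglycerols (5), the genotype contrasts after DHA, EPA and OA (0 each) and DHA minus EPA (0) stayed within 1.5 times under the settings run. By Spearman's rho, a setting chosen after seeing the data, 2 in place of 5 pairs of genes passed. The cause of these changes was not tested.

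Replicate numbers are shared between the genotypes. Over 17 pairs of same-numbered arrays the correlation of deviations ran from -0.44 to 0.55 and was above 0.1 in 6. Within the WY14643 pairs it ran from 0.09 to 0.55. No constant pairing of the mice was seen, but these correlations cannot exclude one. With the replicate block the counts were 2 after WY14643, 3 averaged over the agonists, 5 for WY14643 minus the triacylglycerols, 2 for EPA minus OA and 2 for DHA minus OA.

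The averaged Fabp6 call (adjusted p = 0.0443) was also lost with no filter (0.0816) and no trend (0.0537). The arrays without which it was lost were PPARα-null WY14643 replicates 1 and 3, EPA replicates 3 and 5, DHA replicates 3 and 4 and OA replicates 1, 2 and 3, and wild-type WY14643 replicates 2, 3 and 4, EPA replicates 2 and 4, DHA replicates 1, 2, 4 and 5 and OA replicates 1, 2 and 4. For Slc51a after WY14643 in wild-type mice (0.0461) they were wild-type WY14643 replicates 1, 2 and 3, EPA replicates 1, 3 and 4, DHA replicates 1, 2 and 4 and OA replicates 2 and 4. In wild-type mice with only the groups compared, Nr1h4 was not called for EPA (0.0533) or DHA (0.0636) minus OA. Fgf15 lay near the floor of the array, where signal over background limits any comparison.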
